A study of Mus musculus with 2 samples.

Results

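The cholesterol and fatty acid synthesis genes described here are 31 mouse genes chosen by name for their place in lipid synthesis. They comprise 19 enzymes of sterol synthesis, 5 regulators of the pathway, 1 sterol carrier and a fatty acid list of Acly, Acaca, Fasn, Elovl6, Scd1 and Scd2. A row in both count tables was present for 30 of the 31 genes, out of 19845 genes with a row in both, and Scd1 was not analysed here. The study asked how cell cycle state relates to arterial and venous identity while retinal vessels form. Endothelial cells that carried CD31 and lacked CD45 were sorted from the retinas of wild-type C57BL/6 mice at postnatal day 6 (P6) and postnatal day 15 (P15), and 1 droplet library was sequenced per age. How many animals entered each library was not given in the sources used here. With 1 library per age, the age and the library cannot be told apart, and no difference below has a replicate check.

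Cells make cholesterol from acetyl-CoA through mevalonate and farnesyl diphosphate to squalene, which is closed into lanosterol and trimmed to cholesterol. When the membranes of the endoplasmic reticulum are poor in sterol, the escort protein encoded by Scap carries the precursor of the transcription factor encoded by Srebf2 to the Golgi apparatus, where it is cut and released to the nucleus, and the proteins encoded by Insig1 and Insig2 hold it back when sterol is plentiful. Srebf1 encodes the related factor best known for fatty acid synthesis, and growing endothelial cells need both products for new membrane.

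Cell barcodes numbered 1984 at P6 and 2141 at P15 in the count tables. After the study's exclusion criteria (200 to 3500 detected genes, at most 5% mitochondrial counts and no count of Hbb-bt, Neurod1 or Cd63), 1424 P6 cells and 1644 P15 cells were kept. The criteria as read here did not return exactly the cells that the study kept: of 1560 P6 cells with a cluster label, 1399 passed, and of 438 labelled P15 cells 409 did. The cells that passed held 7648189 and 7371443 unique molecular identifiers (UMIs, each standing for 1 captured RNA molecule), with medians of 4985.5 and 4214.5 per cell. Doublets were not called, and the upper limit on detected genes was the only step against them. The libraries shared 7 barcode sequences, 2 of which passed in both. Levels are given as CPM (UMIs of the gene scaled to the same total in every group of cells) with an exact 95% Poisson interval, ratios with a conditional binomial 95% interval and shares of cells with a Clopper-Pearson 95% interval, all of which cover counting error only. CPM values are not scaled by transcript length, so levels are compared between cells and not between genes.

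The sorted cells carried the markers of their label. All 10 endothelial markers were detected in both libraries, with a summed level of 10337 CPM at P6 and 15886 CPM at P15, and Cldn5 was the most abundant of them. Mural markers summed to 13.3 CPM at P6 (7 of 8 detected, Cspg4 at 0) and 301.0 CPM at P15 (8 of 8), with Rgs5 most abundant in both. Markers of Mueller glia and astrocytes summed to 369.6 CPM (7 of 8, Aqp4 without a count) and 1229 CPM (8 of 8), nearly all of it Glul at 366.4 and 1161 CPM. Rlbp1, another of these markers, had 1.31 CPM at P6 and 63.6 CPM at P15, in 0.702% and 17.2% of cells. Erythroid markers summed to 22.6 CPM (3 of 5, Hbb-bt and Alas2 at 0) and 172.6 CPM (4 of 5, Hbb-bt at 0), led by Hbb-bs. Photoreceptor markers summed to 21.7 and 50.7 CPM, with 6 of 6 detected in both and Sag most abundant. Neuronal markers summed to 57.5 CPM (4 of 5, Neurod1 at 0) and 25.6 CPM (3 of 5, Neurod1 and Tubb3 at 0), led by Stmn2. Hbb-bt and Neurod1 were at 0 because the criteria removed every cell with a count of them. Leukocyte markers summed to 1.05 and 2.44 CPM with 4 of 5 detected in each library and Ptprc without a count, led by Csf1r at P6 and C1qa at P15. Pigment epithelium markers summed to 1.83 CPM (3 of 4, Dct at 0) and 2.17 CPM (2 of 4, Tyr and Dct not detected), led by Pmel. No fibroblast marker of 4 was detected at P6, where 0 UMIs, with the bound set at 3 UMIs, allow up to 0.392 CPM, and 2 of 4 were at P15, with 1.49 CPM led by Col1a2 and no UMI of Col1a1 or Lum. The part of these other cell types in the differences below was not tested.

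The libraries also differed in the sex-linked UMIs of their cells, although the study states that its experiments used male and female mice in equal number. Cells with Xist and no Y-linked UMI made up 17.3% of the P6 cells and 5.84% of the P15 cells, and cells with a Y-linked and no Xist UMI made up 23.8% and 49.9%. The other cells held neither signal or both. Among the cells with Xist alone the ratio of P15 to P6 for the sterol enzymes was 0.589, and among those with Y-linked UMIs alone it was 0.780, against 0.770 in all cells that passed. Cells with Xist alone numbered 246 at P6 and 96 at P15. Ratios of single genes in them are given below without intervals and rest on few UMIs at P15, and a difference by sex was not tested.

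**Figure D1:**
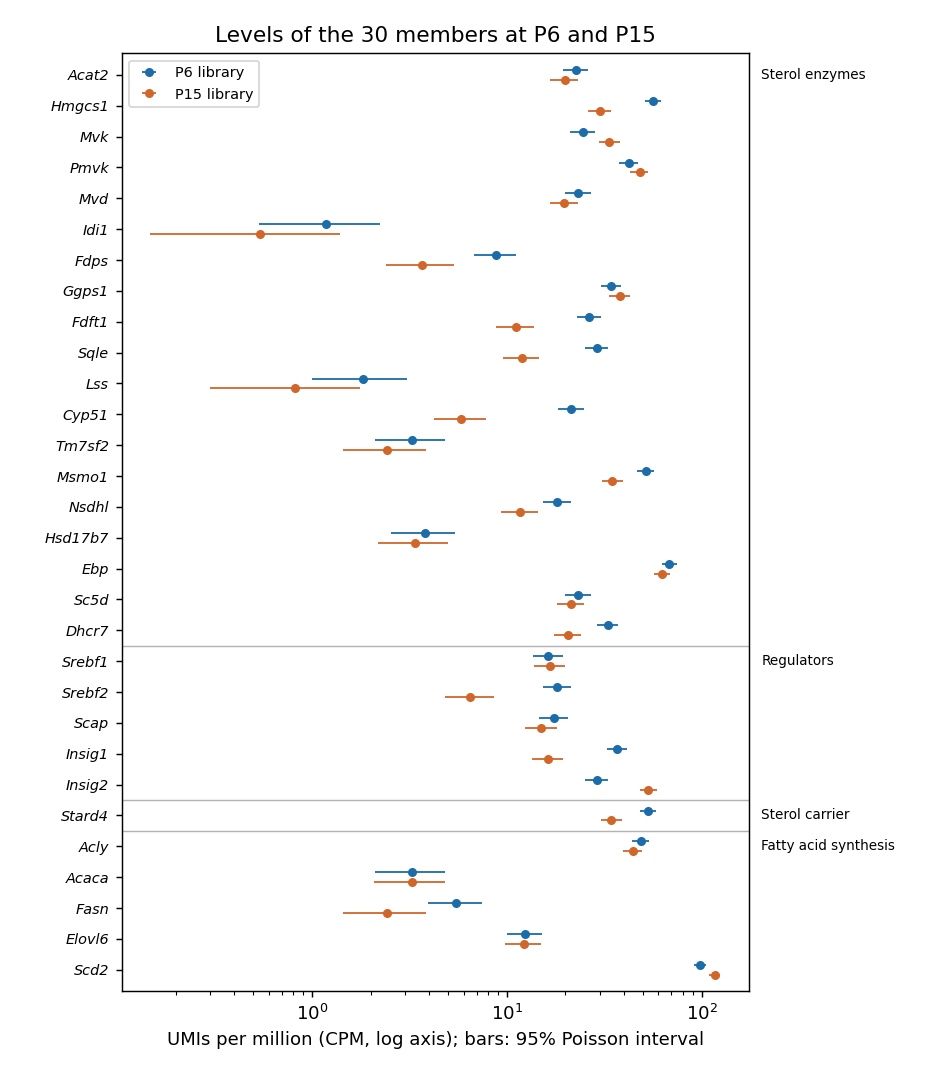
Level of each of the 30 genes in the P6 (blue) and P15 (orange) library, in CPM on a log axis with 95% Poisson intervals. The P15 point lies left of the P6 point for Hmgcs1, Fdft1, Sqle, Cyp51, Srebf2 and Insig1 and right of it for Insig2.

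The first comparison asked how the synthesis genes differed between the retina of the first week and that of P15. Genes were counted as higher or lower when the ratio of CPM was at least 1.5 or at most 0.667 and both libraries together held at least 100 UMIs of the gene. Of the 30 genes, 23 reached that minimum, 9 of them were lower at P15 and 1 was higher. Of 9387 genes that reached the minimum in the whole tables, 10.5% were lower and 17.5% higher. The 9 were Hmgcs1, Fdft1, Sqle, Cyp51, Nsdhl, Dhcr7, Srebf2, Insig1 and Stard4, and the 1 was Insig2. The median log2 ratio of the 23 genes was -0.21, beside 0.12 for the 9387. The median gene with at least 100 UMIs in each library was thus 1.09 times as high at P15 as at P6 on the CPM scale. With the libraries scaled by that median of ratios, 14% of all genes were lower and 12.5% higher, and the synthesis genes counted 10 lower, with Msmo1 added, and 1 higher.

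The enzymes of sterol synthesis summed to 493.7 CPM (478.1 to 509.7) at P6 and 380.1 CPM (366.2 to 394.5) at P15, a ratio of 0.770 (0.733 to 0.809). Relative to the median gene the ratio was 0.706. The change was uneven along the pathway. The 8 enzymes that lead to farnesyl and geranylgeranyl diphosphate summed to 213.4 and 193.3 CPM, a ratio of 0.906 (0.843 to 0.973), and 1 of the 6 that reached the minimum was lower. The 11 that make and process squalene and the sterols after it summed to 280.3 and 186.8 CPM, a ratio of 0.666 (0.622 to 0.713), and 5 of the 8 that reached the minimum were lower. Relative to the median gene these ratios were 0.831 and 0.611.

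Hmgcs1 encodes the cytosolic synthase that condenses acetoacetyl-CoA with acetyl-CoA on the way to mevalonate. Its level was 56.2 CPM (51.0 to 61.8) at P6 and 29.98 CPM (26.2 to 34.2) at P15, a ratio of 0.533 (0.451 to 0.629), or 0.336 among cells with Xist alone. The share of cells with a UMI of Hmgcs1 was 23.9% at P6 and 11.98% at P15. When equal numbers of 3000 UMIs were drawn per cell (thinning), a step that dropped 179 shallower cells at P6 and 481 at P15, it was 15.2% and 7.48%. These genes are used by nearly every cell type, so no type known to lack them was at hand to measure free RNA in the droplets. The other 5 of the first 8 enzymes that reached the minimum lay within the fold. Mvk, the kinase that phosphorylates mevalonate, had 24.6 CPM at P6 and 33.6 CPM at P15, a ratio of 1.37 (1.13 to 1.66), and Pmvk, which adds the next phosphate, had 42.4 and 48.0 CPM, a ratio of 1.13. The decarboxylase gene Mvd had a ratio of 0.845, the thiolase gene Acat2 0.876 and Ggps1, which makes geranylgeranyl diphosphate, 1.10. Hmgcs1 and Mvk thus sat on opposite sides of the median gene, 2 steps of the same stretch of the pathway.

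Fdft1 and Sqle act where the pathway commits to sterols: Fdft1 joins farnesyl diphosphate into squalene and Sqle oxidises it. Fdft1 had 26.4 CPM (22.9 to 30.3) at P6 and 11.1 CPM (8.85 to 13.8) at P15, a ratio of 0.421 (0.322 to 0.547). Sqle had 29.0 CPM (25.3 to 33.1) and 11.9 CPM (9.57 to 14.7), a ratio of 0.411 (0.318 to 0.529). The intervals of the libraries did not overlap for either gene. Among cells with Y-linked UMIs alone the ratio of Sqle was 0.627, among those with Xist alone 0.272, and with the P6 shares of the clusters applied to both libraries, in the cells that carry a cluster label, it was 0.559.

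The lowest ratio among the 23 genes belonged to Cyp51, the demethylase that takes the first methyl group off lanosterol. It had 164 UMIs at P6 and 43 at P15, or 21.4 CPM (18.3 to 24.99) and 5.83 CPM (4.22 to 7.86), a ratio of 0.272 (0.190 to 0.383). The share of cells with a UMI was 9.62% and 2.62%, and 5.86% and 1.55% after thinning. Within the cells that held Xist alone, 96 of them at P15, the ratio was 0.0969. The 43 UMIs at P15 came from all 1644 cells, so that value rests on very few UMIs and is no measure of a stronger difference. Of the enzymes that remove the remaining methyl groups, Nsdhl had 18.2 CPM at P6 and 11.7 CPM at P15, a ratio of 0.642 (0.485 to 0.846), and Msmo1 had 51.6 and 34.9 CPM, a ratio of 0.675 (0.575 to 0.792) that fell just short of the fold. Nsdhl had a ratio of 0.825 in thinned cells and 0.754 with the P6 cluster shares, both within the fold, and of 0.417 among cells with Xist alone. Dhcr7, which reduces a ring double bond to give cholesterol, had 33.1 CPM (29.1 to 37.4) and 20.6 CPM (17.5 to 24.2), a ratio of 0.623 (0.506 to 0.765). With the P6 cluster shares that ratio was 0.803, and among cells with Xist alone 0.781. The isomerase gene Ebp, at 68.4 and 62.8 CPM, and the desaturase gene Sc5d, at 23.3 and 21.3 CPM, had ratios of 0.919 and 0.915. The tested late enzymes therefore differed among themselves, from 0.272 for Cyp51 to 0.919 for Ebp.

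The remaining 5 sterol enzymes had fewer than 100 UMIs and are given as values. Fdps, which makes farnesyl diphosphate, had 67 UMIs at P6 and 27 at P15. The lanosterol synthase gene Lss had 14 and 6 UMIs, the isomerase gene Idi1 9 and 4, Tm7sf2 25 and 18, and Hsd17b7 29 and 25. Some of these genes have close copies in the genome. Of the 31-base stretches in the last 500 bases of their transcripts, where droplet libraries are usually read, the share also found in transcripts of other genes was 79.8% for Fdps, 44.7% for Idi1, 25.3% for Acat2, 22.7% for Acaca, 15.95% for Ggps1, 14.0% for Elovl6, 12.7% for Tm7sf2 and 3.55% for Sc5d. Counts of these 8 genes are uncertain for that reason. Dhcr7 shared 0.120%, and the other members shared none.

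**Figure D2:**
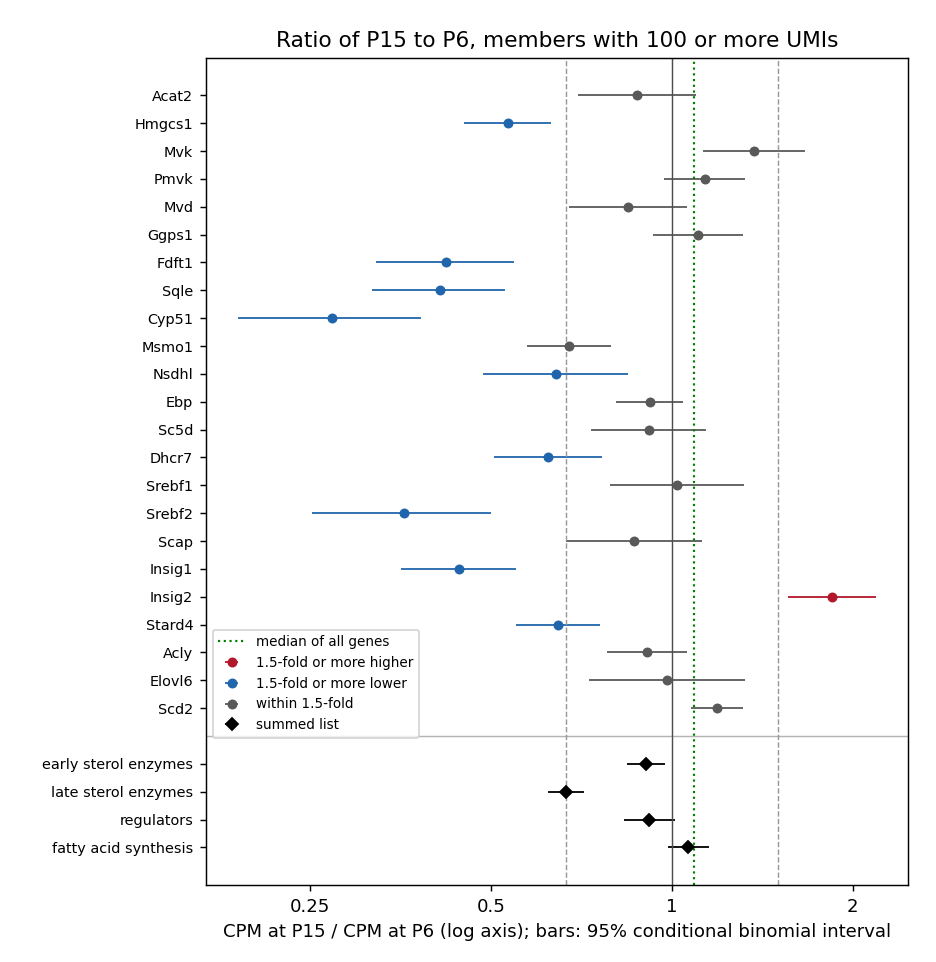
Ratio of P15 to P6 for the 23 genes with at least 100 UMIs (circles) and for 4 summed lists (diamonds), on a log axis with 95% conditional binomial intervals. Dashed lines mark 1.5-fold in each direction and the dotted line the median gene at 1.09: 9 genes lie left of the lower dashed line and Insig2 lies right of the upper one.

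The regulators summed to 117.5 CPM (110.0 to 125.5) at P6 and 107.8 CPM (100.5 to 115.6) at P15, a ratio of 0.918 (0.833 to 1.01), or 0.841 relative to the median gene. That sum joined genes that moved in opposite directions: 2 of the 5 were lower and 1 was higher. Srebf2, which encodes the factor that drives the sterol genes, had 18.2 CPM (15.3 to 21.5) at P6 and 6.51 CPM (4.80 to 8.63) at P15, a ratio of 0.358 (0.252 to 0.501). Its paralog Srebf1 had 16.3 CPM (13.6 to 19.5) and 16.7 CPM (13.9 to 19.9), a ratio of 1.02 (0.789 to 1.32). On the median of ratios scale the ratio of Srebf1 was 0.936, on the other side of 1, and among cells with Xist alone it was 0.592. The intervals of the libraries did not overlap for Srebf2 and nearly coincided for Srebf1. Scap, the escort of both factors, had 17.4 and 15.1 CPM, a ratio of 0.866.

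The Insig pair split. Insig1 encodes a retention protein and is itself a known target of the factor encoded by Srebf2. Insig1 had 36.7 CPM (32.6 to 41.3) at P6 and 16.3 CPM (13.5 to 19.5) at P15, a ratio of 0.443 (0.355 to 0.551). Insig2 had 28.9 CPM (25.2 to 33.0) and 53.3 CPM (48.2 to 58.9), a ratio of 1.85 (1.56 to 2.19). Thinned to 3000 UMIs, Insig1 was found in 8.996% of P6 cells and 4.64% of P15 cells, against 13.6% and 6.39% unthinned. Insig2 was found in 7.79% and 15.8% of thinned cells, against 14.8% and 20.7% unthinned. Relative to the median gene the ratio was 0.406 for Insig1 and 1.69 for Insig2. Among cells with Xist alone Insig2 had a ratio of 1.25, within the fold. Without Insig2 the other 4 regulators had a summed ratio of 0.615.

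Stard4 encodes a carrier that moves cholesterol between membranes. It had 53.2 CPM (48.2 to 58.6) at P6 and 34.5 CPM (30.3 to 39.0) at P15, a ratio of 0.648 (0.551 to 0.759). Its place past the fold depended on the cells used: the ratio was 0.696 over every barcode, 0.697 in thinned cells, 0.795 with the P6 cluster shares and 0.846 among cells with Xist alone.

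The fatty acid list summed to 167.9 CPM (158.8 to 177.3) at P6 and 178.8 CPM (169.3 to 188.7) at P15, a ratio of 1.07 (0.985 to 1.15). Relative to the median gene the ratio was 0.977, in thinned cells 0.988 and without Scd2 0.890, so its direction was not settled. None of the 3 genes that reached the minimum was past the fold. Scd2, the stearoyl-CoA desaturase that makes monounsaturated fatty acids, had 98.1 CPM (91.2 to 105.3) and 117 CPM (109.0 to 124.7), a ratio of 1.19 (1.08 to 1.31), and held 58.4% of the list's UMIs at P6 and 65.3% at P15. A UMI of Scd2 was found in 37.2% of P6 cells and 36.8% of P15 cells, and in 24.0% and 26.4% after thinning. Acly, which makes cytosolic acetyl-CoA, had 48.6 and 44.2 CPM (ratio 0.909), and the elongase gene Elovl6 had 12.4 and 12.2 CPM (ratio 0.983). Acaca, the carboxylase, had 25 and 24 UMIs, and Fasn, the fatty acid synthase, had 42 and 18 (ratio 0.445, 0.241 to 0.789), both too few for the count. Of the 5 genes Scd2 alone had a ratio over 1. Scd2 was the paralog analysed here, since Scd1 was not.

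Some other genes of sterol and fatty acid metabolism also passed the fold between the ages. Of 21 that reached the minimum, 3 were lower at P15 and 3 higher, where 10.5% and 17.5% of all genes were. The acyltransferase gene Soat1, which stores cholesterol as ester, had 20.8 and 9.50 CPM (ratio 0.457), and the desaturase gene Fads1 had 29.2 and 14.5 CPM (ratio 0.498). The ubiquitin ligase gene Mylip had 4.18 and 16.7 CPM, a ratio of 3.99 (2.68 to 6.08). Lpin1 had 5.49 and 11.1 CPM (ratio 2.03), and Cyb5r3, a reductase that passes electrons to desaturases, had 252.5 and 433.2 CPM (ratio 1.72). Of 11 genes of lipid uptake, 6 reached the minimum, none was lower and 2 were higher: Scarb1 with 133.2 and 207.2 CPM and Slc27a1 with 4.31 and 9.09 CPM. With the median of ratios scaling 1 of the 6 was higher.

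Promoter letters are shown for 4 of the genes that were lower at P15, an early and a late sterol enzyme and the 2 regulators that were lower. The RefSeq table of promoters on GRCm38.p6, 250 bases before to 50 after each start site, held 33 promoters of 25 of the 31 genes. Sqle, Fdps, Fdft1, Stard4, Scd1 and Scd2 were not matched. Each promoter was searched on both strands for the letters TCACNCCAC, a form of the sterol regulatory element, and for CCAAT, the letters read by the factor NF-Y. Capitals mark either motif, and CCAAT on the other strand reads ATTGG.
Hmgcs1, chr13:119690101-119690400, plus strand: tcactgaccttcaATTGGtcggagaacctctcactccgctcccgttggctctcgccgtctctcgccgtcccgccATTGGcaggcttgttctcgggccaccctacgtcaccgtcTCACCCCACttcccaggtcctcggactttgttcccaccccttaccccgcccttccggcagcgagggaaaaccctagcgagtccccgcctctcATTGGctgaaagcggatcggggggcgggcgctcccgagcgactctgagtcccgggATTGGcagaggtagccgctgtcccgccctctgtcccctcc
Cyp51, chr5:4104648-4104947, minus strand: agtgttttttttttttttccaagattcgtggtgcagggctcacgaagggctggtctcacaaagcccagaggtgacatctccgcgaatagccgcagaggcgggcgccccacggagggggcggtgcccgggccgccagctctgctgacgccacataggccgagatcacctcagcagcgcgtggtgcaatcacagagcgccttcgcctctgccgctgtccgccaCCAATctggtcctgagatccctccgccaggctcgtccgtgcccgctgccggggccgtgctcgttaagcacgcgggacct
Srebf2, chr15:82147019-82147318, plus strand: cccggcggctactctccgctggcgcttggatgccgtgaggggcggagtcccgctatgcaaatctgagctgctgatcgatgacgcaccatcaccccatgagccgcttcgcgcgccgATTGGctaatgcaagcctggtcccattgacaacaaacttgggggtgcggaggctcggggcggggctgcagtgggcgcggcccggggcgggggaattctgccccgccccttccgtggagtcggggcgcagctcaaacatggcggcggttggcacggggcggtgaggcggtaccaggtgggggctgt
Insig1, chr5:28071162-28071461, plus strand: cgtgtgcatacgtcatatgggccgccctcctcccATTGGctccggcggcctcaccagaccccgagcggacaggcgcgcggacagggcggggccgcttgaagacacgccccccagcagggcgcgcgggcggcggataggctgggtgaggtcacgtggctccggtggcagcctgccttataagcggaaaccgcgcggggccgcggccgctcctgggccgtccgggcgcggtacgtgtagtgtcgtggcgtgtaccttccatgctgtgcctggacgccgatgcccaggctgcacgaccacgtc
TCACNCCAC was found in 1 of the 33 promoters, that of Hmgcs1, where it began at position -137 from the start site, and in 1.24% of all 32851 promoters of the table. CCAAT was found in 22 of the 33 promoters, those of 21 of the 25 genes, and in 37.4% of all promoters. Of the 9 genes that were lower at P15, 6 had a promoter in the table, 6 held CCAAT and 1 held TCACNCCAC. Insig2, the gene that was higher, had 3 promoters in the table, 1 with CCAAT 3 times and none with TCACNCCAC. A match describes letters in these windows and no more.

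The second comparison asked how the genes were spread over the cell states that the study named. Cluster labels were those of the study, copied from its source data. The labels Primordial-Proliferative and Primordial there were renamed Proliferative and Primitive, the names in the study's text. They covered 1560 P6 cells, all of which were used here whether they passed the criteria or not, and at P15 only the first 438 cells of the shortened copy at hand, so levels by cluster are described for P6 first. The clusters were made from the same expression values, so a cluster set against the other labelled P6 cells is a description. A total of 8020 genes had at least 100 UMIs over the labelled P6 cells, among them 23 of the 30 synthesis genes.

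Insig1 was concentrated in Stalk cells, the cells that trail the leading Tip cells of a sprout. Its level was 119.6 CPM (102.2 to 139.2) in 230 Stalk cells and 21.4 CPM in the other labelled P6 cells, a ratio of 5.60 (4.51 to 6.96). The 168 UMIs came from 78 cells, 33.9% of the cluster, and the share was 25.4% after thinning. Tip cells had 25.02 CPM, Cap-Venous cells 23.3 CPM, Proliferative cells 23.3 CPM, Cap-Arterial cells 13.2 CPM and Primitive cells 9.55 CPM, while Capillary cells reached 40.2 CPM (24.9 to 61.4). Insig2 was not concentrated in that way, with 35.6 CPM in Stalk cells and 26.5 CPM in the other cells (ratio 1.35, 0.969 to 1.84). Insig1 was the only 1 of the 23 genes that was higher in Stalk cells, where 2.96% of all genes were, and Scap (ratio 0.606) the only 1 that was lower, where 7.28% were. The sterol enzymes summed to 462.2 CPM in Stalk cells, a ratio of 0.908 (0.835 to 0.987), so Insig1 was high there without the enzymes. Outside the list, 18 other genes of sterol and fatty acid metabolism reached the minimum. Of these, 2 were higher in Stalk cells and 1 was lower. The sterol exporter gene Abcg1 was among the higher, with 703.6 against 456.7 CPM (ratio 1.54, 1.44 to 1.65).

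**Figure D3:**
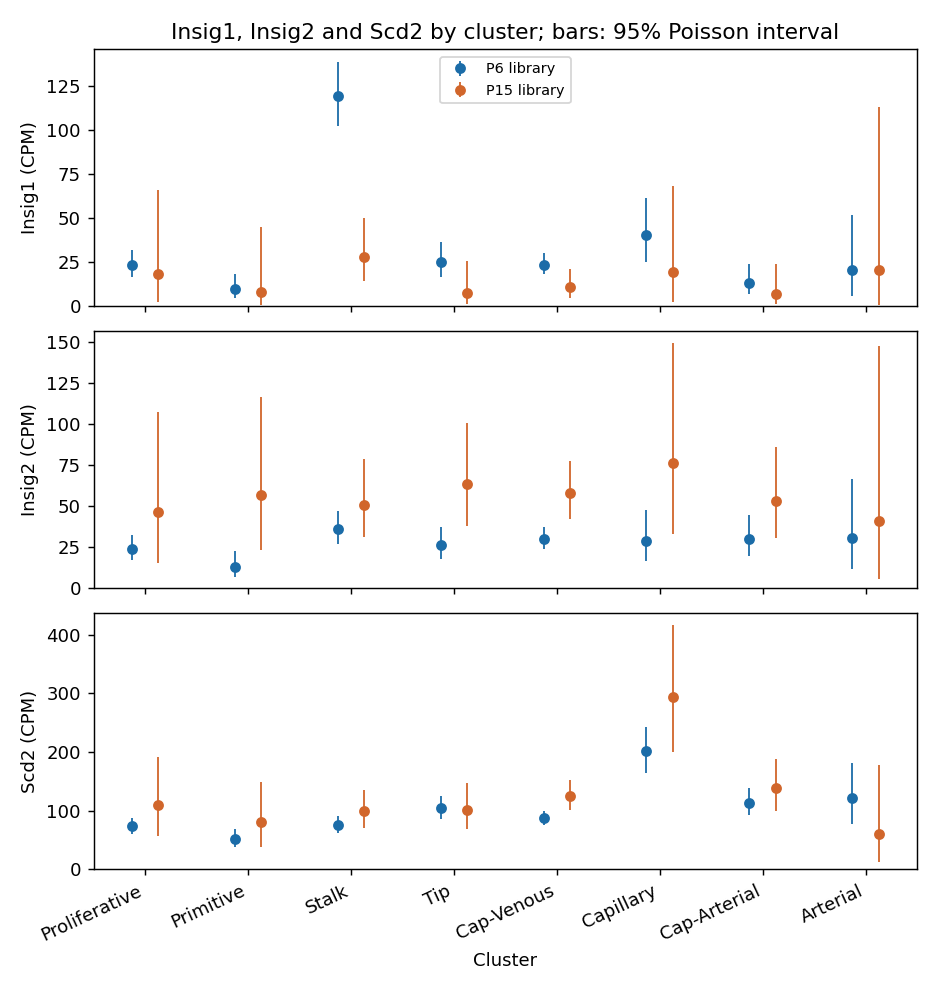
Levels of Insig1, Insig2 and Scd2 in CPM in 8 clusters of the P6 (blue) and P15 (orange) library with 95% Poisson intervals; Venous cells are left out because 2 were labelled at P15. Insig1 stands at 119.6 in P6 Stalk cells, and Scd2 stands highest in Capillary cells at both ages.

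Capillary cells had the most synthesis genes that were higher among the 6 clusters counted. Of the 23 genes, 8 were higher and none lower, where 20.1% and 10.6% of all genes were. The fatty acid list summed to 338.5 CPM (290.5 to 392.2) in the 149 Capillary cells and 151.7 CPM in the others, a ratio of 2.23 (1.90 to 2.61), and all 3 of its tested genes were higher. Scd2 had 200.8 CPM (164.3 to 243.1) against 85.2 CPM, a ratio of 2.36 (1.90 to 2.89). Acly had 89.9 against 46.8 CPM (ratio 1.92, 1.39 to 2.60) and Elovl6 26.8 against 11.6 CPM (ratio 2.30, 1.22 to 4.04). Both factors that drive lipid genes were higher too: Srebf1 had 34.4 against 15.9 CPM (ratio 2.17, 1.25 to 3.54) and Srebf2 38.3 against 18.6 CPM (ratio 2.05, 1.22 to 3.27). The others were Scap (ratio 1.56, 0.831 to 2.69), Cyp51 (1.66, 0.964 to 2.70) and Msmo1 (1.64, 1.17 to 2.26). The sterol enzymes summed to 610.1 CPM there against 495.9 CPM, a ratio of 1.23 (1.09 to 1.38). At P15 the sterol enzymes of Capillary cells were on the other side of 1, with 312.1 against 403.0 CPM (ratio 0.774, 0.529 to 1.10), while the fatty acid list had 406.7 against 176.4 CPM (ratio 2.30, 1.64 to 3.17). Scd2 was found in 45.6% of Capillary cells, and in 35.2% of the 91 among those 149 cells that reached 3000 UMIs.

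Capillary cells were shallower than the rest, with a median of 3204 UMIs, and 2.51% of their UMIs at the median were mitochondrial, against 0.907% to 1.34% in the other P6 clusters. Summed glial (195.1 CPM), neuronal (11.5 CPM) and mural markers (9.56 CPM, 5 UMIs) were below their levels in all P6 cells that passed (369.6, 57.5 and 13.3 CPM). Of those 57.5 CPM, Stmn2 made up 53.7 CPM, and it was high in Arterial and Cap-Arterial cells. The neuronal sum of Capillary cells was above that of Proliferative (2.99 CPM), Primitive (1.06 CPM) and Stalk cells (2.85 CPM). It was also above that of Tip (6.26 CPM), Venous (7.03 CPM) and Cap-Venous cells (3.76 CPM). Photoreceptor markers had 21.0 against 21.7 CPM. Erythroid (28.7 against 22.6 CPM) and pigment epithelium markers (3.83 against 1.83 CPM) were above. Glul, at 191.3 CPM, was above its level in Proliferative (113.5 CPM), Primitive (117.8 CPM) and Tip cells (153.7 CPM). The part of depth, RNA quality and other cell types in these ratios was not tested. Outside the list, 18 other genes of sterol and fatty acid metabolism reached the minimum. Of these, 7 were higher in Capillary cells and 1 was lower, where 20.1% and 10.6% of all genes were. Not all of the 7 are named here. The exporter gene Abca1 had 221.9 against 83.3 CPM in Capillary cells (ratio 2.66, 2.17 to 3.24). Mbtps2 (2.47), Elovl5 (1.80), Acsl3 (2.48) and Erlin1 (1.73) were higher there too, and Nr1h2 (0.635) was lower. Of 5 uptake genes, Mfsd2a, the lysolipid carrier of the blood-retina barrier by which the study named this cluster, and Lrp8 were higher.

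**Figure D4:**
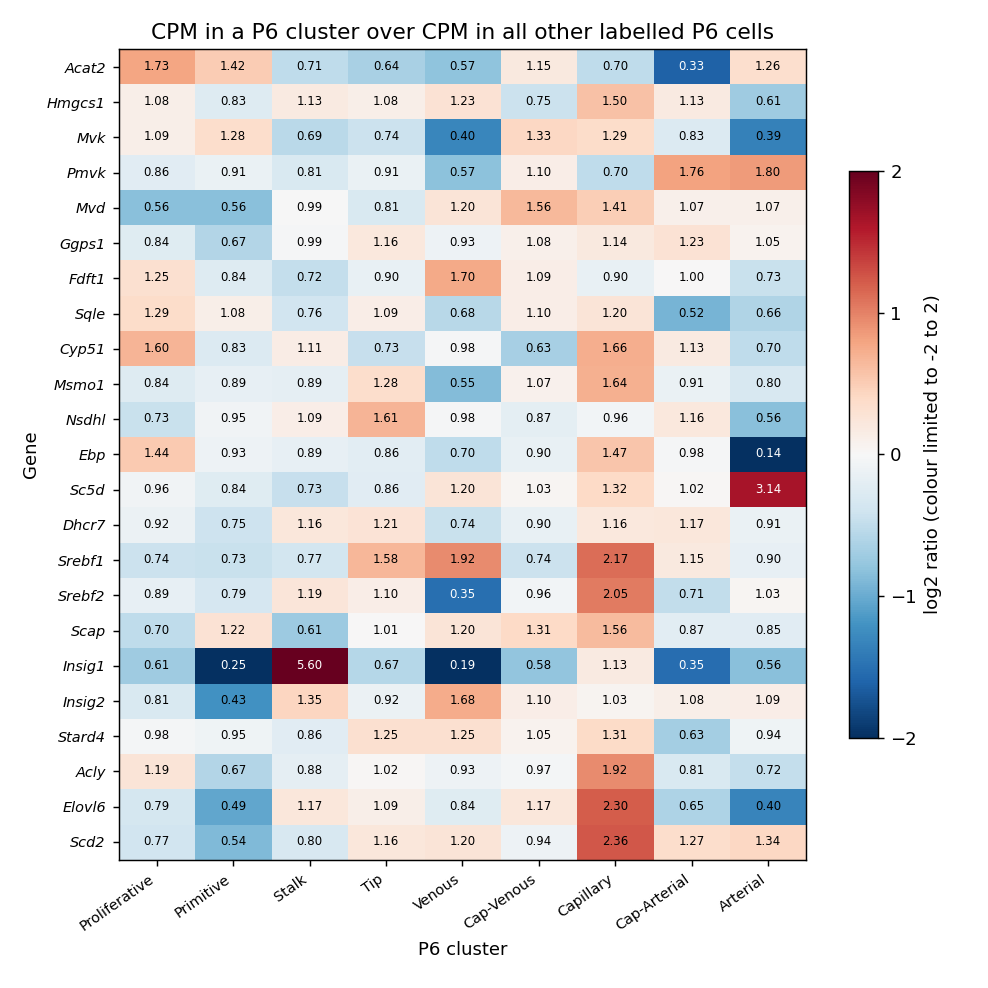
Ratio of the level in each P6 cluster to that in all other labelled P6 cells for the 23 genes with at least 100 UMIs, with the ratio printed in each cell and colour showing its log2 between -2 and 2. Insig1 in Stalk cells (5.60) and the fatty acid genes in Capillary cells (1.92 to 2.36) stand out, and many of the deep colours in Venous and Arterial cells rest on few UMIs.

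In Primitive cells 5 of the 23 genes, or 21.7%, were lower and none higher, where 39.4% of all genes were lower and 5.61% higher. The median log2 ratio of the 23 genes was -0.26, beside -0.36 for all genes. The 5 were Insig1 (9.55 against 38.5 CPM, ratio 0.248), Insig2 (12.7 against 29.4 CPM, 0.433), Mvd (0.559), Elovl6 (0.486) and Scd2 (52.0 against 95.7 CPM, 0.543). The fatty acid list summed to 100.9 CPM in the 155 Primitive cells, a ratio of 0.599 (0.482 to 0.737), while the sterol enzymes summed to 448.0 CPM, a ratio of 0.882 (0.796 to 0.975).

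Proliferative cells, which must double their membrane before they divide, were compared because cell cycle state was the study's subject. The sterol enzymes summed to 533.8 CPM (499.4 to 570.0) in the 198 Proliferative cells and 495.4 CPM in the other cells, a ratio of 1.08 (1.001 to 1.16). The fatty acid list had 149.3 against 164.4 CPM, a ratio of 0.908 (0.790 to 1.04) that became 1.10 without Scd2. Of the 23 genes 2 were higher, Acat2 (37.0 against 21.5 CPM, ratio 1.73) and Cyp51 (31.1 against 19.5 CPM, ratio 1.60), where 8.89% of all genes were. Another 2 were lower, Insig1 (ratio 0.608) and Mvd (ratio 0.560), where 11% of all genes were. As for every cluster but Stalk, the cells that Insig1 was set against included the Stalk cells, at 119.6 CPM. Its level in Proliferative cells was close to the 23.3 CPM of Cap-Venous cells, so that call is not a low level beside most clusters. No summed list was past 1.5-fold in these cells. The share of synthesis genes past the fold was close to that of all genes in both directions.

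In Tip cells Nsdhl (26.8 against 16.7 CPM, ratio 1.61) and Srebf1 (25.02 against 15.8 CPM, ratio 1.58) were higher and Acat2 (ratio 0.638) was lower, where 6.02% of all genes were higher and 9.09% lower. The sterol enzymes summed to 501.3 CPM in the 170 Tip cells and 502.2 CPM in the others. In the 40 Arterial cells 2 of the 23 genes were higher and 7 lower, where 21.9% and 22.5% of all genes were. Stmn2 stood at 1179 CPM and Glul at 1564 CPM in these cells, and at 234.4 and 1591 CPM in Cap-Arterial cells. In Arterial cells the other 7 glial markers and the neuronal markers Neurod1, Syt1 and Tubb3 were not detected, and the part of these genes' cells of origin in the result was not tested. The higher 2 were Sc5d (14 UMIs, ratio 3.14, 1.69 to 5.39) and Pmvk (15 UMIs, ratio 1.80, 0.999 to 3.01). The lower 7 were Ebp (2 UMIs, ratio 0.144, 0.0173 to 0.521), Elovl6, Hmgcs1, Insig1, Mvk, Nsdhl and Sqle, with 1 to 7 UMIs each and intervals that, apart from that of Ebp, included 1. For Insig1 the other cells again included the Stalk cells, and its 20.2 CPM in Arterial cells stood beside 23.3 CPM in Cap-Venous cells. Arterial and venous cells were compared because of the study's question on arterial and venous identity. The 42 Venous cells at P6 had 442.8 CPM of the sterol enzymes and 172.2 CPM of the fatty acid list. Arterial cells had 440.3 and 172.1 CPM. Against the larger Cap-Venous cluster, the sterol enzymes of Arterial cells had 440.3 against 506.9 CPM, a ratio of 0.869 (0.691 to 1.08). The fatty acid list had 172.1 against 156.7 CPM, a ratio of 1.10 (0.750 to 1.56). Both intervals included 1. The sterol ratio was 1.16 in thinned cells, and the fatty acid ratio was 1.52 in thinned cells and 0.728 without Scd2. At P15, with 11 Arterial cells, the sterol ratio lay on the other side of 1 at 1.32 (0.857 to 1.96), with 1.76 (1.02 to 2.88) for the late enzymes, so neither direction was settled.

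The last comparison set P15 against P6 within each of the 6 clusters with at least 30 labelled cells in both libraries. It rests on the 438 labelled P15 cells, and the mix of cells inside a cluster may still differ. Mural, glial and erythroid markers each had more CPM at P15 than at P6 in each of the 6 clusters. Mural markers ranged from 10.8 and 155.2 CPM in Cap-Arterial cells to 9.56 and 435.0 CPM in Capillary cells. In Stalk cells glial markers had 206.5 and 1060 CPM and erythroid markers 16.4 and 222.6 CPM. Photoreceptor markers rose from 24.4 to 451.9 CPM in Primitive cells. Median depth fell from 3204 to 2268.5 UMIs in Capillary cells and from 5148 to 2704.5 UMIs in Primitive cells, and the part of these differences in the ratios below was not tested. The late sterol enzymes had a ratio under 1 in 6 of 6 clusters, from 0.330 in Capillary cells to 0.852 (0.550 to 1.27) in Primitive cells. The interval lay under 1 in 5 of the 6. In Cap-Venous cells, which hold the most UMIs, they summed to 274.7 CPM at P6 and 208.2 CPM at P15, a ratio of 0.758 (0.634 to 0.901). In Capillary cells they summed to 373.0 and 122.9 CPM, a ratio of 0.330 (0.172 to 0.577) that rests on 13 UMIs at P15. The early enzymes had a ratio under 1 in 5 of 6 clusters and an interval under 1 in none. The late part of the pathway thus had a ratio under 1 in each of the 6 clusters, as in all cells. Both rest on the same 2 libraries, so the clusters are no independent check. Among single genes that reached the minimum, 10.3% of 9387 were under 1 in all 6 clusters. The summed list of other sterol and fatty acid metabolism genes was over 1 in 6 of 6, with an interval over 1 in 4.

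Hmgcs1, Fdft1, Sqle, Cyp51, Srebf2 and Insig1 each had a ratio under 1 in 6 of 6 clusters, with an interval under 1 in 2, 3, 2, 1, 1 and 2 of them. These 6 were among the 9 genes already counted as lower in all cells, from which most of the labelled P15 cells come, and of the 987 genes of the whole tables so counted 62.0% were under 1 in all 6 clusters as well. The P15 values rest on few UMIs, 12 for Cyp51, 17 for Srebf2 and 19 for Fdft1 over the 6 clusters. The other 3 genes that were lower in all cells did not keep that direction throughout: Nsdhl and Stard4 each had a ratio over 1 in 2 of 6 clusters and Dhcr7 in 1 of 6. Insig1 in Stalk cells had 119.6 CPM at P6 and 27.8 CPM at P15, a ratio of 0.233 (0.114 to 0.427), and in Cap-Venous cells 23.3 and 10.5 CPM, a ratio of 0.450 (0.186 to 0.942). The lower level of Insig1 was therefore present both where it was concentrated at P6 and where it was not. Insig2 had a ratio over 1 in 6 of 6 clusters, from 1.42 in Stalk cells to 4.43 in Primitive cells (12 and 7 UMIs), with an interval over 1 in 3, among them Cap-Venous cells with 29.7 and 57.6 CPM (ratio 1.94, 1.31 to 2.84). Of the 1647 genes higher in all cells 46.1% were over 1 in all 6 clusters. Scd2 had a ratio over 1 in 5 of 6 clusters, with Tip cells at 0.976, and an interval over 1 in 1, the Cap-Venous cells with 87.2 and 124.4 CPM (ratio 1.43, 1.11 to 1.82). Capillary cells had the highest Scd2 level of the clusters at P15 too, with 293.2 CPM (199.2 to 416.1) from 31 UMIs. The fatty acid list had a ratio over 1 in 4 of 6 clusters and the regulators in 2 of 6.

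**Figure D5:**
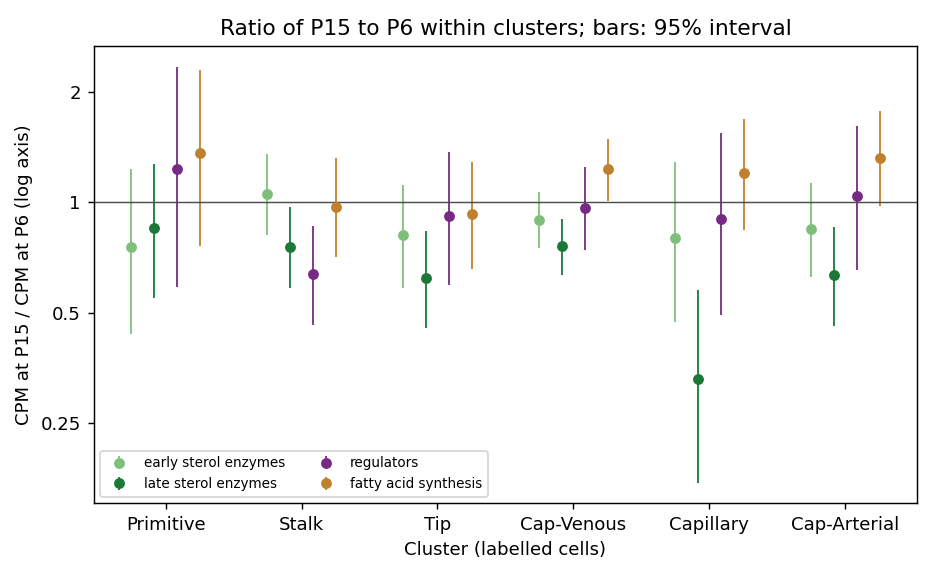
Ratio of P15 to P6 within 6 clusters for 4 lists of synthesis genes, on a log axis with 95% conditional binomial intervals. The late sterol enzymes (dark green) lie under 1 in all 6 clusters, while the fatty acid list (brown) lies between 0.929 and 1.36.

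Per cell the genes were sparse. Of 3000 UMIs, a P6 cell held 1.51 UMIs of the 19 sterol enzymes on average (SD over 1245 cells 1.39) and a P15 cell 1.14 (SD over 1163 cells 1.12), and 25.9% of P6 cells and 33.4% of P15 cells held none. The counts of the early and late enzymes had a Pearson r of 0.0893 and a Spearman rho of 0.0892 across P6 cells, and 0.0393 and 0.0272 across P15 cells, which at these counts is no finding on whether the enzymes vary together from cell to cell.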

How the data were processed

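Single-cell RNA sequencing of retinal endothelial cells gave 1 library per age. The authors deposited a table of UMI counts per gene and cell barcode for each library, and the submitters' processing notes name the mm10 genome and Seurat 3.0; the aligner is not given in the sources used here. Identifiers were matched to symbols with the GENCODE M21 annotation (99.8% in each table). Python 3.11.15, numpy 2.4.6, scipy 1.17.1 and pandas 2.3.3 were used.

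UMIs were summed over the cells of a library or cluster and divided by their total. The 3 marker genes of the exclusion step and the limits on genes and mitochondrial share follow the study's methods, with its limits read as 200 to 3500 genes and at most 5%. Cluster labels came from the study's source data. Cells were thinned at random to 3000 UMIs. Scripts were tested on simulated data. The share of all genes with the same direction in 6 clusters was added after seeing the data. No test across cells was made, since each age had 1 library. Alternatives changed the cells, scaling, depth, weighting and fold.

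All 31 members were given a value where they had one. They are described in full if past 1.5-fold with at least 100 UMIs by age or in the Proliferative, Tip, Stalk, Primitive, Arterial or Capillary cluster, and the pairs Insig1 and Insig2, Srebf1 and Srebf2 and Scd1 and Scd2 always. Genes outside the list were named in single clusters after their values were seen, and some of them are not reported here. The members and lists were chosen with earlier results of these data known.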

Additional observations from a re-analysis of the deposited data

How the results depend on the processing

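Ratios are those of P15 to P6 unless a cluster is named. With median of ratios scaling the sterol enzymes had a ratio of 0.706 and the fatty acid list 0.977. With totals that left out mitochondrial and ribosomal genes the ratios were 0.696 for the sterol enzymes, 0.963 for the fatty acid list and 0.830 for the regulators. In labelled cells the fatty acid ratio was 1.16, and also 1.16 without the Proliferative cluster. Without the most abundant gene of each list, the fatty acid ratio was 0.890, that of the regulators 0.615, that of the fatty acid list in Proliferative against other P6 cells 1.10 and in Arterial against Cap-Venous cells 0.728. In thinned cells the sterol ratio of Arterial to Cap-Venous cells was 1.16. At a fold of 2 the synthesis genes counted 5 lower and 0 higher of 23, where 4.82% and 6.23% of all genes were, and at a fold of 1.3 they counted 2 higher, where 29.7% were. In labelled cells 6 of 24 were lower, where 12.9% were. Alternatives by sex were chosen after seeing the data, as were all those on Capillary and Stalk cells. Among cells with Xist alone, the ratio was 0.589 for the sterol enzymes, 0.715 for the regulators, 1.49 for the sterol enzymes of Capillary against other cells and 4.47 for Insig1 in Stalk cells. Among cells with Y-linked UMIs alone 5 of 17 tested genes were lower, where 9.12% of all genes were. The cause was not tested for any of these.

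For 12 named genes, 144 alternatives gave 121 ratios within the counting interval and 23 outside it, and 0 moved a called gene to the other side of 1. No paired analysis was possible because each age had 1 library. Low counts limit the values of 7 genes under 100 UMIs and of the Arterial, Venous and P15 clusters.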
